A study of Mus musculus with 24 samples.

Results

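The genes described here are 8 genes of granule-mediated killing, the granzymes *Gzma*, *Gzmb* and *Gzmc*, the pore-forming protein gene *Prf1*, the lymphocyte cathepsin gene *Ctsw*, the granule membrane protein gene *Nkg7*, and the receptor genes *Fcer1g* and *Klrd1*. They were chosen by measured values and by name: *Ctsw* and *Gzma* were among the largest falls with sgCbfb in experiment 1, and the others were picked by name beside them. All 8 were in the deposited values, which cover 55487 genes. The libraries came from Cas9-LPs, lymphoid progenitor lines made from fetal liver cells of *Ebf1*-deficient mice that carry Cas9 at Rosa26, so every group lacks *Ebf1*. The lines grew on OP9 stroma with SCF, Flt3L and IL-7, received a retrovirus with sgRNAs and the marker hNGFR, and were sorted as hNGFR+CD45+ cells 5 days later, with 3 sgRNAs pooled per target gene and sgRNAs to luciferase as sgControl. QuantSeq, which sequences the 3′ ends of mRNA, was run on 24 libraries in 8 groups of 3.

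Experiment 1 held 4 groups: LPs on OP9 with sgControl, LPs on OP9 with sgCbfb, and cells moved to OP9-DLL4, whose Notch ligand starts the T-cell program, with either sgRNA set. The cells on OP9-DLL4 are called Phase 1 cells. The study describes them as stimulated with Notch ligand for 2 days, whereas the sample labels do not make the time on OP9-DLL4 clear. Experiment 2 held LPs on OP9 with sgControl, sgCbfb, sgCTCF or sgMed12. *Cbfb* encodes the partner of the RUNX transcription factors, *Ctcf* a protein that binds chromatin domain borders, and *Med12* a subunit of the Mediator kinase module. A pool of edited cells from a cultured line is the model, so cells in which the target gene was not cut may remain in every edited group. The methods call the libraries of a group biologically independent but do not say whether they were separate transductions, and p-values measure only the spread between these samples, which may be technical. The genes, and the lists used below, were chosen with earlier results of these data known. That limits the p-values and counts of experiment 2 too.

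Cytotoxic lymphocytes kill by releasing granules at the contact with a target cell. Perforin opens the target membrane, and granzymes, serine proteases stored on a proteoglycan core, enter through it and cleave proteins inside. Natural killer cells and cytotoxic T cells carry the full set, whereas early T-cell and innate lymphoid progenitors can transcribe parts of it before they have any killing function.

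Values are CPM, the reads of a gene scaled to the same library total, and the tables of the 2 experiments were normalized separately, so levels are ordered only within an experiment. Each library of experiment 1 held 1363263 to 1743319 reads on genes and each of experiment 2 held 3354483 to 4326782. A floor of 3 reads corresponded to 1.72 to 2.20 CPM in experiment 1 and to 0.693 to 0.894 CPM in experiment 2. Counting intervals and floors cover counting error only. Differences were fitted with limma on log2(CPM + 1), a scale that understates the change of genes with few reads, and a gene is said to be called when its Benjamini-Hochberg adjusted p was under 0.05, its group means differed by more than 1 on the log2 scale, and either mean was above 10 CPM. Replicates were compared by chi-square per gene over their reads, which was 2.46 to 5.01 in 20 pairs. Phase 1 sgControl replicate 3 stood apart from the others of its group (10.7 and 8.75), as did sgMed12 replicate 2 (17.6 and 9.43). Of the 8 genes, 6 passed the filter of at least 1 CPM in 3 libraries in each experiment, and *Gzmb* and *Gzmc* did not.

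The targeted genes were read first. *Cbfb* was at 86.5 ± 9.30 CPM (SD, n = 3) in sgControl LPs and 40.2 ± 5.18 CPM with sgCbfb in experiment 1, and at 114.3 ± 8.37 and 48.4 ± 6.93 CPM in experiment 2. In Phase 1 cells its means were 66.5 CPM with sgControl and 53.9 CPM with sgCbfb. *Ctcf* was at 391.0 CPM with sgControl and 305.7 CPM with sgCTCF. *Med12* was at 5.14 CPM with sgControl and 7.01 CPM with sgMed12. A 3′ tag lies away from the cut, and an edited transcript can still be counted, so these levels do not check the editing. The study checked it at the protein level by immunoblot: it reports loss of CBFβ, and it also blotted CTCF and Med12.

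*Gzma* (ENSMUSG00000023132, GRCm38 chr13:113093825-113100981, minus strand), which encodes granzyme A, a trypsin-like protease, was the member with the widest range. In sgControl LPs of experiment 1 its values were 2.36, 6.19 and 8.99 CPM, from 28 reads in all. In sgControl Phase 1 cells they were 2837, 2378 and 3093 CPM. Every Phase 1 library was far above every LP library of that sgRNA set, with no overlap.

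The mean went from 5.85 ± 3.33 to 2769 ± 362 CPM (n = 3 each), a ratio of 474 (95% counting interval 331 to 720). Without replicate 3 of Phase 1 sgControl, which stood apart and had the highest value, the ratio was 446. The limma difference was 8.79 (SE 0.39). It is a description, with no p, because these Phase 1 libraries also entered the contrast that chose *Gzma*, which favours high values in them. In bulk samples such as these, fewer cells of a type and less RNA per cell cannot be told apart.

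With sgCbfb, *Gzma* was at 4.23, 0.573 and 0.713 CPM in LPs, from 8 reads, and at 109.6, 86.7 and 61.3 CPM in Phase 1 cells. The Phase 1 libraries again lay above all LP libraries, and they lay below all Phase 1 libraries with sgControl. Within sgCbfb cells, whose libraries entered the choice too, the mean was 46.7-fold higher in Phase 1 cells (counting interval 24.4 to 113), a limma difference of 5.13 given as a description. The ratio was 134.0 without LP sgCbfb replicate 1, which held most of the LP reads. Between the Phase 1 groups the sgCbfb mean was 32.3-fold lower (counting interval 29.3 to 35.8), given as a description because this contrast chose the gene. The order was Phase 1 sgControl, Phase 1 sgCbfb, then the LP groups, which overlapped each other.

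In experiment 2, where no group met DLL4, *Gzma* was at or under the floor with sgControl and sgCbfb and under 10 CPM in every library. It was at 0.791, 0.295 and 0.487 CPM with sgControl, from 6 reads, and at 0 in all 3 libraries with sgCbfb. With sgCTCF it was at 2.68, 3.06 and 3.93 CPM, and with sgMed12 at 0.847, 2.03 and 1.42 CPM. The sgCTCF libraries lay above all others. The lowest sgMed12 library and the highest sgControl library held 3 reads each, so these groups are not ordered. The ratio of sgCTCF to sgControl was 6.15 (counting interval 2.57 to 17.8). *Gzma* passed the filter on low values in experiment 2 only through the sgCTCF libraries, in which it was highest, so no p is given, and with both means under 10 CPM it was not called. No fold is given for sgCbfb against sgControl, since both groups were at or under the floor.

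The promoters of *Gzma*, *Nkg7* and *Prf1* are shown because *Gzma* had the largest change, *Nkg7* moved beside it in the Notch comparison, and *Prf1* was the member whose promoter held both motifs searched. They come from RefSeq on GRCm38.p6, 250 bases before to 50 after the start site, at chr13:113100932-113101231 (minus strand) for *Gzma*, chr7:43436888-43437187 (plus strand) for *Nkg7* and chr10:61297586-61297885 (plus strand) for *Prf1*, and capitals mark the motif letters.
Gzma: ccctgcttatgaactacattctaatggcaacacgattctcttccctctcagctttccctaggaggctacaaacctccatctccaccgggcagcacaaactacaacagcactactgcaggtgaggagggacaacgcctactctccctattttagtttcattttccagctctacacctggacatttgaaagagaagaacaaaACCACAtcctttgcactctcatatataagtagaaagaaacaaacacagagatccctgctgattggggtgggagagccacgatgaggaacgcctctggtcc
Nkg7: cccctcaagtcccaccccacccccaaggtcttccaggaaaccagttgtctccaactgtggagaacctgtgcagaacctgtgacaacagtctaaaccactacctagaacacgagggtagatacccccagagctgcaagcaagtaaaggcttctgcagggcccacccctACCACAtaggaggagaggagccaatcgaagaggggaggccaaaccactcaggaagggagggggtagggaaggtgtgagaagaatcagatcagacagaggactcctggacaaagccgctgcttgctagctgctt
Prf1: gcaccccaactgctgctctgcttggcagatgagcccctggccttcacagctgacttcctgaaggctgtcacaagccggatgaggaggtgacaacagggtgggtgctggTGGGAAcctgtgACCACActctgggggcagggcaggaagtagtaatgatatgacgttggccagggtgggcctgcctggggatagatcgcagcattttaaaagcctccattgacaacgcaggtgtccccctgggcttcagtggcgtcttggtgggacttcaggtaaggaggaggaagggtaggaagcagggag

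The RUNX letters searched were TGTGGT and TGCGGT and the RBPJ letters TGGGAA, each on both strands, so that ACCACA marks TGTGGT on the opposite strand. The promoter table held 6 of the 8 genes, without *Ctsw* and *Klrd1*. RUNX letters were in 6 of these 6 promoters and in 22.4% of all 32851 promoters in the table. In *Gzma* the match lay at −50 from the start site, in *Nkg7* at −83 and in *Prf1* at −130, with the RBPJ letters of *Prf1* at −142. RBPJ letters were in 1 of the 6, that of *Prf1*, and in 25.6% of all promoters, and both motifs in 1 of 6 against 5.92%. A match describes letters only.

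*Gzmb*, the gene of the caspase-cleaving granzyme B (chr14:56258838-56262260, minus strand), and *Gzmc* (chr14:56231441-56234656, minus strand) lie with other granzyme, cathepsin G and mast cell protease genes in a cluster of 14 genes on chromosome 14, which spans 321 kb. *Gzmb* had 3 reads in Phase 1 cells with sgControl and 2 with sgCbfb, and 0 in the other 6 groups. *Gzmc* had 0 reads in all 24 libraries. Of the 14 cluster genes, 0 passed the filter on low values, so limma, edgeR and DESeq2 had none to test, and the only other gene with a read was *Gzme*, with 3 reads in sgMed12 LPs. These genes resemble each other in sequence and the handling of reads that match several is not stated, so their low counts are uncertain. Among all 10 granzyme genes, 2 were tested in each experiment, *Gzma* on chromosome 13 and *Gzmm* on chromosome 10, and *Gzmm* had group means of 0.215 to 1.03 CPM.

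*Prf1* (ENSMUSG00000037202, chr10:61297833-61304680, plus strand), which encodes perforin, was low in every group of experiment 1. Its values were 5.31, 2.48 and 5.14 CPM in sgControl LPs and 8.46, 0 and 2.14 CPM in sgCbfb LPs. In Phase 1 cells they were 7.06, 7.10 and 13.2 CPM with sgControl and 4.54, 1.89 and 4.71 CPM with sgCbfb. The Phase 1 sgControl libraries lay above those of sgControl LPs and of sgCbfb Phase 1 cells, and the sgCbfb LPs overlapped with every group. The limma difference between the sgControl stages was 0.93, given as a description because these libraries entered the contrasts used in the choice.

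In experiment 2, *Prf1* was at 6.86, 3.25 and 2.92 CPM with sgControl and at 2.98, 1.07 and 0.503 CPM with sgCbfb. With sgCTCF it was at 14.8, 11.97 and 13.2 CPM, and with sgMed12 at 5.93, 5.52 and 3.12 CPM. The sgCTCF libraries stood above every other library, and the remaining groups overlapped with their neighbours in order. The sgCTCF mean rose 3.06-fold over sgControl (counting interval 2.21 to 4.32), a limma difference of 1.49 with a Benjamini-Hochberg adjusted p of 0.00836 in 3 of 3 libraries. That call ended without sgControl replicate 3 (adjusted p 0.0584) and with no filter on low values (0.0506), within a range of 0.000385 to 0.0584 over the alternatives tried. With sgCbfb the mean was 2.86-fold lower (counting interval 1.68 to 5.65; 5.51-fold without sgCbfb replicate 1), with a limma adjusted p of 0.0414 at a difference of −1.13, but both means were under 10 CPM and 1 of 3 sgCbfb libraries overlapped with sgControl.

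*Ctsw* (ENSMUSG00000024910, chr19:5465043-5468507, minus strand), the gene of cathepsin W, a papain-family protease found mainly in natural killer and cytotoxic T cells, was present in LPs. In experiment 1 it was at 58.4, 43.3 and 41.8 CPM in sgControl LPs and at 31.8, 31.0 and 41.8 CPM in sgControl Phase 1 cells. With sgCbfb it was at 4.23, 2.29 and 0.713 CPM in LPs and at 1.95, 6.28 and 5.89 CPM in Phase 1 cells. All sgControl libraries were above all sgCbfb libraries, and within each sgRNA set the stages overlapped. As a description of the contrasts that chose it, the sgCbfb mean was 19.8-fold lower in LPs (counting interval 10.9 to 40.5; 31.8-fold without sgCbfb replicate 1) and 7.40-fold lower in Phase 1 cells (4.67 to 11.8). The difference between the sgControl stages was −0.44, given as a description because these libraries entered the contrasts that chose the gene.

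In experiment 2, *Ctsw* was at 35.6, 39.3 and 32.6 CPM with sgControl and at 3.28, 0.804 and 2.77 CPM with sgCbfb. It was at 122.1, 106.4 and 104.5 CPM with sgCTCF and at 51.4, 40.1 and 42.3 CPM with sgMed12. The groups followed each other without overlap, with sgCTCF highest and sgCbfb lowest.

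With sgCbfb, *Ctsw* fell by 3.58 (SE 0.23) on the log2(CPM + 1) scale, with a limma Benjamini-Hochberg adjusted p of 1.17e-11 in 3 of 3 libraries, and the ratio of means was 15.7 (counting interval 10.5 to 24.6). With sgCTCF it rose 3.10-fold (2.78 to 3.48), a limma difference of 1.60 with an adjusted p of 2.98e-05 in 3 of 3 libraries. Its mean with sgMed12 was 44.6 ± 6.01 CPM against 35.8 ± 3.33 CPM, a difference of 0.30 (95% interval −0.17 to 0.78) with a limma adjusted p of 0.453. Exons of *Ctsw* share 9 bases with *Fibp* on the opposite strand, and *Fibp* had group means of 31.1 to 35.7 CPM in all 8 groups; whether counting used the strand is not stated.

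*Nkg7* (ENSMUSG00000004612, chr7:43437073-43438249, plus strand) encodes a membrane protein of cytotoxic granules that is needed for their release. In experiment 1 it was at 7.67, 10.5 and 10.3 CPM in sgControl LPs and at 140.5, 115.5 and 174.6 CPM in sgControl Phase 1 cells. With sgCbfb it was at 0.705, 1.72 and 2.85 CPM in LPs and at 9.08, 3.77 and 11.8 CPM in Phase 1 cells. Phase 1 sgControl libraries were far above the rest, sgCbfb LPs were lowest, and the other groups overlapped.

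In sgControl cells *Nkg7* was 15.1-fold higher with Notch stimulation (counting interval 11.1 to 20.8; 13.5-fold without Phase 1 replicate 3), a limma difference of 3.78, in 3 of 3 libraries. In sgCbfb cells the ratio was 4.67 (2.18 to 11.7) and the limma difference 1.70, with both means under 10 CPM. These are descriptions with no p, since the same libraries entered the contrasts used in the choice. The difference between these responses, −2.07, is also that between the sgCbfb contrasts used in the choice and is given as a description. As a description, the sgCbfb mean was 5.39-fold lower in LPs (2.52 to 13.2) and 17.5-fold lower in Phase 1 cells (12.5 to 24.3).

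In experiment 2, *Nkg7* was at 10.8, 10.9 and 11.7 CPM with sgControl and at 0, 0.804 and 0 CPM with sgCbfb, from 3 reads. With sgCTCF it was at 24.2, 22.3 and 16.2 CPM and with sgMed12 at 14.7, 20.3 and 24.1 CPM. The latter groups overlapped each other, and both lay above sgControl, which lay above sgCbfb. With sgCbfb it fell by 3.32 on the log2(CPM + 1) scale, with a limma Benjamini-Hochberg adjusted p of 4.1e-09 in 3 of 3 libraries, and the ratio of means was 41.6 (counting interval 13.8 to 202). That ratio rests on the 3 reads of sgCbfb replicate 2: without this library the group is at 0 and has no ratio, and without either of the others the ratio was 27.7. The means with sgCTCF and sgMed12 were 1.87 and 1.77 times that of sgControl, and limma gave differences of 0.83 (95% interval 0.23 to 1.43, adjusted p 0.0701) and 0.75 (0.15 to 1.34, adjusted p 0.116).

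*Klrd1* (ENSMUSG00000030165, chr6:129591782-129598775, plus strand) encodes CD94, which pairs with NKG2 proteins as a receptor on natural killer cells. In experiment 1 it was at 7.08, 4.95 and 0 CPM in sgControl LPs, 0.705, 1.15 and 0 CPM in sgCbfb LPs, and 7.06, 16.1 and 0 CPM in sgControl Phase 1 cells. In sgCbfb Phase 1 cells it was at 0.648, 0.628 and 1.18 CPM. All 4 groups overlapped, and in 3 of them replicate 3 held no read.

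In experiment 2, *Klrd1* was at 4.22, 6.202 and 1.95 CPM with sgControl and at 0.298, 0.536 and 0 CPM with sgCbfb, from 3 reads. It was at 9.93, 17.0 and 14.1 CPM with sgCTCF and at 2.26, 3.78 and 7.66 CPM with sgMed12. The sgCTCF libraries were above all others and the sgCbfb libraries below all others, while sgMed12 overlapped with sgControl.

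With sgCTCF, *Klrd1* rose 3.32-fold (counting interval 2.45 to 4.88), a limma difference of 1.58 with a Benjamini-Hochberg adjusted p of 0.00814 in 3 of 3 libraries. The call ended without sgCTCF replicate 2 (adjusted p 0.0614), without sgControl replicate 3 (0.0783), at a pseudocount of 0.1 (0.078) and with no filter on low values (0.0522), within a range of 0.000422 to 0.0783 over the alternatives. With sgCbfb its mean, from 3 reads, was 14.8-fold lower (4.72 to 73.9; 27.7-fold without sgCbfb replicate 2), a limma difference of −1.93 with an adjusted p of 0.000804 in 3 of 3 libraries, under the limit of 10 CPM.

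*Fcer1g* (ENSMUSG00000058715, chr1:171229572-171234365, minus strand) encodes the gamma chain that carries the signal of Fc receptors and of some natural killer receptors. In experiment 1 it was at 197.7, 170.9 and 171.5 CPM in sgControl LPs, 114.3, 156.0 and 122.7 CPM in sgCbfb LPs, 124.9, 153.5 and 141.6 CPM in sgControl Phase 1 cells and 83.0, 95.5 and 77.2 CPM in sgCbfb Phase 1 cells. The sgControl LPs were highest and the sgCbfb Phase 1 cells lowest, with the middle groups overlapping. Within sgControl cells the stages differed by −0.36 and within sgCbfb cells by −0.61 on the log2(CPM + 1) scale, given as a description.

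In experiment 2, *Fcer1g* was at 226.5, 197.9 and 195.1 CPM with sgControl, 127.9, 104.0 and 107.3 CPM with sgCbfb, 227.0, 183.2 and 217.3 CPM with sgCTCF, and 236.5, 202.0 and 201.0 CPM with sgMed12. The sgCbfb libraries were below all others, and the other groups overlapped. The sgCbfb mean was 1.83-fold lower (counting interval 1.71 to 1.97), a limma difference of −0.87 with a Benjamini-Hochberg adjusted p of 3.4e-06 in 3 of 3 libraries, short of the fold limit. With sgCTCF the difference was 0.02 (95% interval −0.22 to 0.25), with a limma adjusted p of 0.958.

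**Figure D1:**
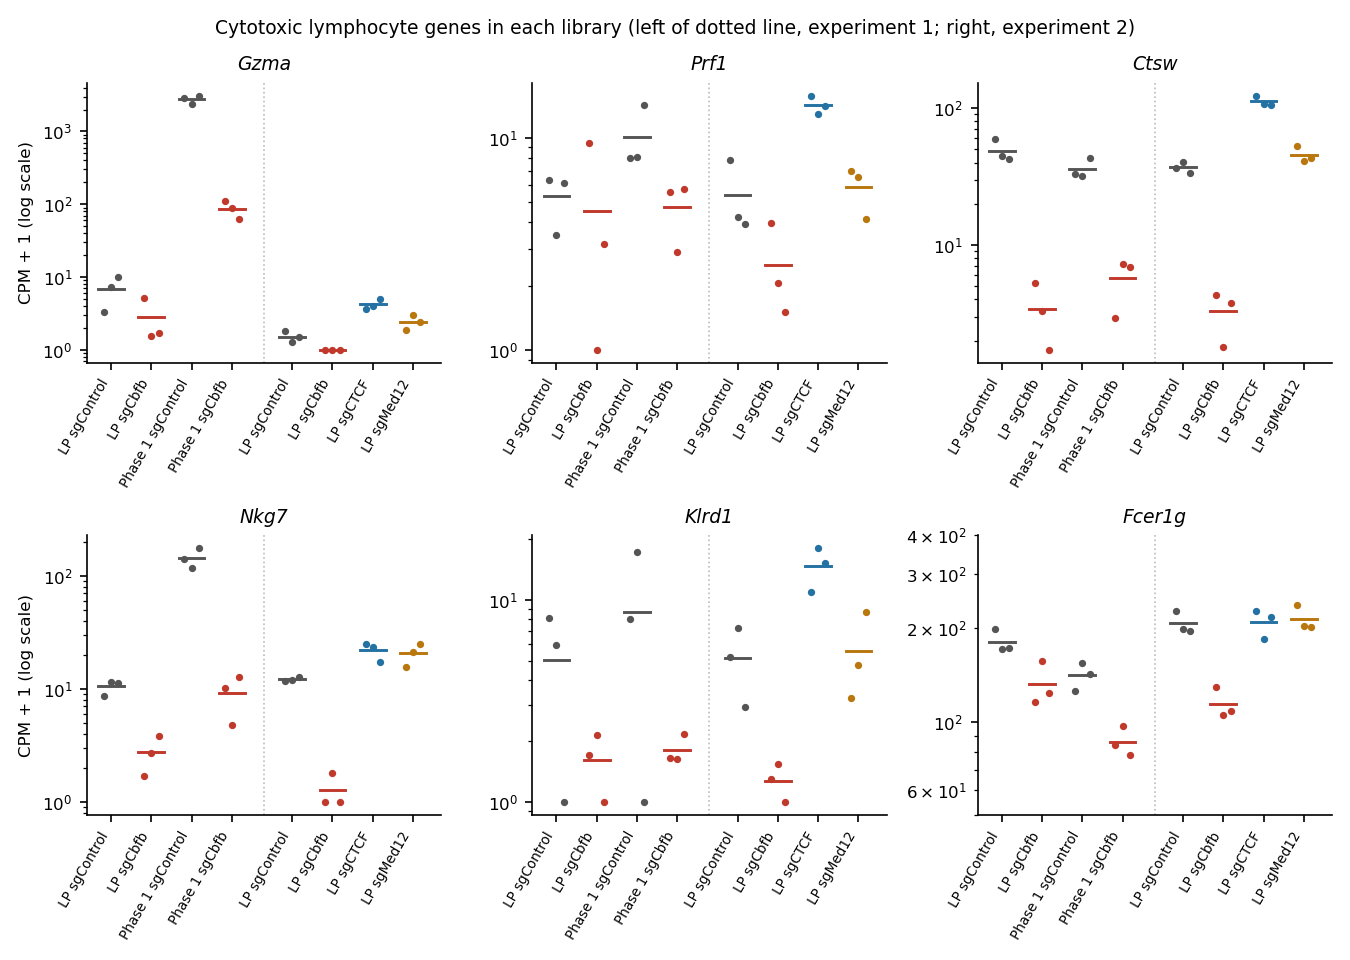
Each panel shows a gene, with CPM + 1 on a log axis, the 8 groups along the x axis, a point for each library and a bar for the mean of 3; experiment 1 lies left of the dotted line. *Gzma* reaches 2378 to 3093 CPM in Phase 1 sgControl libraries, and *Ctsw* is at 0.713 to 6.28 CPM in all sgCbfb libraries of experiment 1.

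The Notch comparisons share their libraries with the contrasts that chose the genes, so the counts are descriptions from which nothing is read. Between sgControl LPs and Phase 1 cells, 2 of the 6 genes tested were called higher, *Gzma* and *Nkg7*, against 1.65% of 13239 genes, and *Gzma* had the largest difference of the 218 genes called. None of the 6 was called lower by limma, edgeR or DESeq2, against 1.74%. In sgCbfb cells 1 of 6 was called higher, *Gzma*, against 0.740% of genes, and 0 lower by any of these tools against 0.453%.

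As a description of the contrasts used in the choice, sgCbfb gave calls for 1 of 6 genes lower in LPs of experiment 1 (*Ctsw*), where 0.597% of genes were called lower and 1.10% higher. In Phase 1 cells 3 of 6 were called lower (*Gzma*, *Nkg7* and *Ctsw*), where 1.56% were called lower and 1.96% higher. The difference between these contrasts passed the limits on adjusted p and mean, here without a fold limit, for 1 of 6 genes, *Gzma*, and for 1.19% of all genes.

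All comparisons of experiment 2 with sgControl share the same 3 sgControl libraries. There, sgCbfb gave calls for 2 of 6 genes lower, *Ctsw* and *Nkg7*, against 1.65% of 13177 genes, and for 0 of 6 higher by limma, edgeR or DESeq2, against 2.67%, with no gene of higher level at an unadjusted p under 0.05. The median difference of the 6 was −1.53, beside −0.01 over all genes. With sgCTCF, 3 of 6 were called higher, *Ctsw*, *Klrd1* and *Prf1*, against 1.81%, and 0 lower by these tools, against 0.622%. Without *Gzma*, which passed the filter only through sgCTCF, the median of the other 5 was 1.49, beside −0.02. With sgCTCF and without sgControl replicate 3, only *Ctsw* of these was called.

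With sgMed12, 0 of 6 genes were called higher, against 0.668%, or lower, against 0.364%, by limma, edgeR or DESeq2, and 1 had an unadjusted limma p under 0.05, *Nkg7* at 0.0169. The median difference was 0.24, beside −0.02 over all genes. The mitochondrial share of reads was 13.7, 8.44 and 11.2% in the sgMed12 libraries and 6.76 to 8.15% in the other 21, and its part in the result was not tested. Over all genes sgMed12 gave 88 calls higher and 48 lower, and 115 and 38 with mitochondrial genes left out of the library total, so the share of higher calls went from 64.7 to 75.2%. The total of 136 calls, and with it the shares over all genes, moved strongly when single libraries were left out. Those counts are given with the dependence on the processing.

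**Figure D2:**
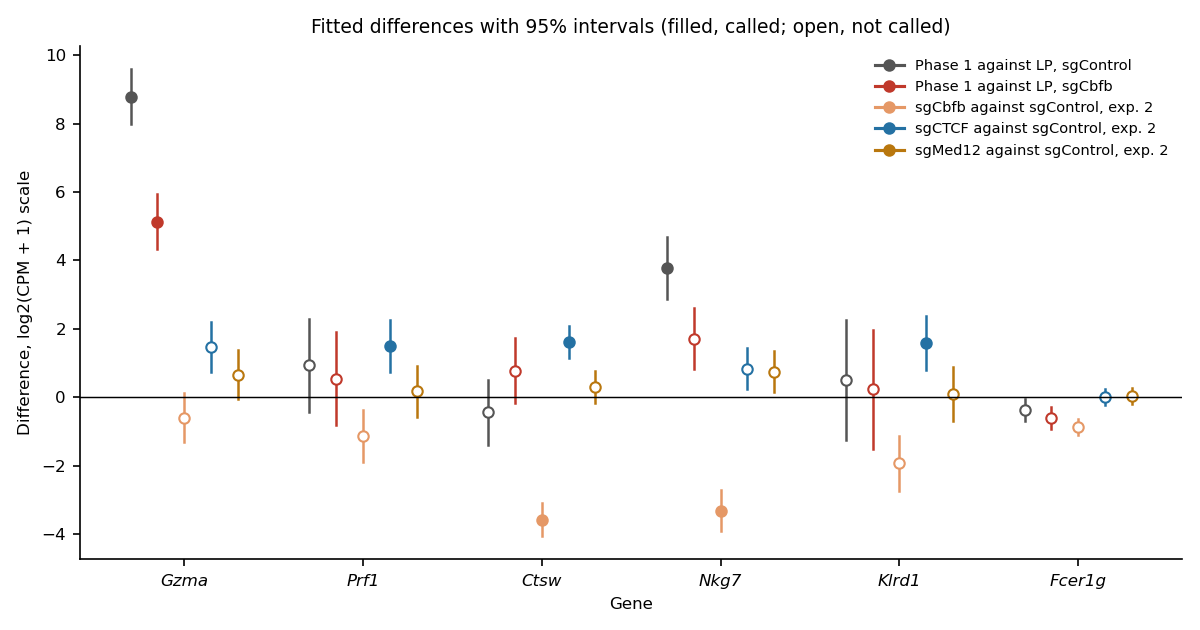
Points are limma differences on the log2(CPM + 1) scale with 95% intervals for the 6 genes tested, in 5 comparisons shown by colour; filled points are called. *Gzma* in sgControl cells has the largest value, 8.79, and *Ctsw* and *Nkg7* lie below −3 with sgCbfb in experiment 2. The Notch comparisons are descriptions, since their libraries entered the choice of the genes.

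The edited groups of experiment 2 were also set against each other. Between sgCTCF and sgCbfb LPs, 4 of 6 genes were called higher with sgCTCF, against 3.48% of genes, and 0 lower by limma, edgeR or DESeq2, against 3.38%, with none lower at an unadjusted p under 0.05. *Ctsw* was 48.6-fold higher (counting interval 33.0 to 75.9), *Nkg7* 77.9-fold (25.7 to 371), *Klrd1* 49.2-fold (16.9 to 247) and *Prf1* 8.76-fold (5.49 to 16.5). The *Nkg7* and *Klrd1* ratios each rest on 3 reads in the sgCbfb group, those of *Nkg7* all in replicate 2. Without sgCbfb replicate 1 or 3 the *Nkg7* ratio was 51.9, and without replicate 2 or 3 the *Klrd1* ratio was 91.7 or 32.8, while the *Prf1* ratio was 16.9 without replicate 1. *Gzma* was at least 3.94-fold higher, with the sgCbfb libraries set to the floor of 3 reads each.

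Between sgMed12 and sgCbfb LPs, 2 of 6 were called higher with sgMed12, against 1.76%, and 0 lower by these tools, against 2.72%, again with none lower at an unadjusted p under 0.05. *Ctsw* was 19.5-fold higher (13.2 to 30.8). *Nkg7* was 73.6-fold higher (24.5 to 355), again over the 3 reads of sgCbfb replicate 2, and 49.1-fold without either of the other sgCbfb libraries. Between sgMed12 and sgCTCF LPs, 3 of 6 were called lower with sgMed12, *Ctsw*, *Klrd1* and *Prf1*, against 2.31%, and 0 higher by these tools, against 1.71%, with none higher at an unadjusted p under 0.05. Ratios were 2.49 for *Ctsw*, 2.99 for *Klrd1* and 2.74 for *Prf1*, whereas *Nkg7* differed by −0.09 (95% interval −0.69 to 0.51). The *Klrd1* call ended without sgMed12 replicate 1, at a limma adjusted p of 0.056 within a range of 0.00166 to 0.0671. The *Prf1* call ended without sgCTCF replicate 1 (0.0543) and without sgMed12 replicate 3 (0.0784), within a range of 0.00182 to 0.191. The *Prf1* call also ended with no filter on low values (0.0584) and the *Klrd1* call at a pseudocount of 0.1 (0.0671). With both sgMed12 libraries of high mitochondrial share left out, an alternative chosen after seeing the data, the difference was −1.59 for *Klrd1* and −1.13 for *Prf1*. In the main fit these were −1.49 and −1.32. Only sgMed12 replicate 2 was then left, the library that stood apart from its group, assumed to vary like the libraries of the other groups. The *Klrd1* ratio was 4.53 without sgMed12 replicate 3.

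The other genes of the pathway were read from lists, with counts of genes called. These lists were chosen with earlier results of these data known, so the counts are descriptions. Over all genes tested, the shares called higher and lower were 1.65 and 1.74% with Notch in sgControl cells, 0.740 and 0.453% with Notch in sgCbfb cells, and in experiment 2 2.67 and 1.65% with sgCbfb, 1.81 and 0.622% with sgCTCF and 0.668 and 0.364% with sgMed12. The granule list holds the proteoglycan, proteases that activate granzymes, inhibitors and transport proteins. In sgControl cells Notch stimulation called 1 of its 22 tested genes higher, *Serpinb6b*, a protease inhibitor (11.9 to 29.7 CPM), against 1.65% of all genes, and 2 lower, against 1.74%, *Ctsl* (75.9 to 15.3 CPM) and *Igf2r* (264.3 to 75.8 CPM). The *Serpinb6b* call was lost in 6 of 23 alternatives, among them those without LP replicate 2 or 3 or Phase 1 replicate 1 or 2, with adjusted p up to 0.176. In sgCbfb cells 1 of 22 was called lower, *Cst7*, an inhibitor of cathepsins (74.0 to 23.7 CPM).

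In experiment 2, sgCbfb called 2 of 21 granule genes lower, against 1.65% of all genes, *Rab27a*, a transport GTPase (83.8 to 34.0 CPM), and *Srgn*, the proteoglycan core (386.7 to 183.4 CPM). With sgCTCF 2 of 21 were higher, against 1.81%, the granzyme B inhibitor *Serpinb9* (6.31 to 34.3 CPM) and *Serpinb6a* (13.95 to 28.8 CPM), the latter short of the fold limit in 3 of 23 alternatives, without sgControl replicate 1 or 3 or sgCTCF replicate 3. With sgMed12 limma called 0 of 21. The list medians were 0.11 with Notch in sgControl cells, without *Ctsh*, which passed the filter only through the higher group, −0.075 with sgCbfb, 0.11 with sgCTCF and −0.078 with sgMed12, beside −0.07, −0.01, −0.02 and −0.02 over all genes.

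Among natural killer receptors and adaptors, which include *Klrd1* and *Fcer1g*, Notch stimulation in sgControl cells called 2 of 15 higher and 1 lower. Of all genes 1.65% were called higher and 1.74% lower. *Cd247*, the zeta chain, went from 5.14 to 40.7 CPM, *Cd7* from 26.5 to 106.3 CPM, and *Fcgr3*, an Fc receptor, from 36.2 to 13.9 CPM. With limma 0 of 15 were called in sgCbfb cells. In experiment 2 *Cd7* fell with sgCbfb from 17.3 to 0.183 CPM and *Fcgr3* rose from 38.0 to 76.9 CPM, of 12 tested, against 1.65% of all genes lower and 2.67% higher. The *Fcgr3* call was lost in 4 of 23 alternatives, each without replicate 1 or 2 of either group, at a limma adjusted p of at most 0.00385 but under the fold limit. With sgCTCF 3 of 12 were higher, against 1.81% of all genes, *Klrd1*, *Cd247* (4.43 to 14.4 CPM) and *Fcgr3* (38.0 to 80.9 CPM, under the fold limit without sgCTCF replicate 1). With sgMed12 limma called 0 of 12. Without genes that passed the filter on low values only through the higher group (*Klrb1b*, *Klri2* and *Cd96* with sgCTCF, *Klri2* with sgMed12), the list median was 0.63 with sgCTCF, −0.35 with sgCbfb and 0.08 with sgMed12, beside −0.02, −0.01 and −0.02 over all genes.

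Transcription factors of cytotoxic cells gave 0 calls of 13 with Notch in sgControl cells by limma. In sgCbfb cells 1 was lower, *Ets1* (106.8 to 49.2 CPM), against 0.453% of all genes. With sgCbfb in experiment 2 limma called 0 of 15. With sgCTCF *Irf4* rose (4.54 to 17.7 CPM) and *Zeb2* fell (47.7 to 22.5 CPM, under the fold limit without sgCTCF replicate 3). Of all genes 1.81% were called higher and 0.622% lower. The list median was 0.01 with sgCbfb and −0.29 with sgMed12, beside −0.01 and −0.02 over all genes. For sgCTCF it was 0.10, beside −0.02, without *Eomes* and *Tox2*, which passed the filter on low values only through that group. With sgMed12 *Nfil3* fell from 17.3 to 7.63 CPM, a call lost in 7 of 24 alternatives with adjusted p up to 0.346, among them those without sgControl replicate 2 or 3 or sgMed12 replicate 1 or 3. Of 8 tested effector cytokines and ligands, Notch called 1 higher in sgControl cells, against 1.65% of all genes. It was *Ccl5* (1.25 to 19.7 CPM, lost at a pseudocount of 0.1 with a limma adjusted p of 0.0715), and limma called 0 of 8 in sgCbfb cells.

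In experiment 2 sgCbfb called 3 of 7 effector genes higher, against 2.67% of all genes, *Ccl5* (0.267 to 21.7 CPM), *Tnf* (4.48 to 13.1 CPM) and *Lta* (4.64 to 12.4 CPM). The *Lta* call was lost in 4 of 23 alternatives with limma adjusted p up to 0.0798, among them those without sgControl replicate 2 or sgCbfb replicate 1 or 3. With sgCTCF 2 of 7 were higher, against 1.81% of all genes, *Lta* (15.9 CPM) and *Ltb* (6.60 to 21.7 CPM), and with sgMed12 limma called 0 of 7. Without *Xcl1*, which passed the filter on low values only through sgCTCF, the list median with sgCTCF was 1.17, and with all 7 genes it was 0.12 with sgCbfb and 0.44 with sgMed12, beside −0.02, −0.01 and −0.02 over all genes.

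Of 12 cytokine receptor and kinase genes, Notch in sgControl cells called 3 higher, against 1.65% of all genes. They were *Il2ra* (2.61 to 371.3 CPM), *Il12rb2* (6.75 to 53.5 CPM) and *Il12rb1* (2.63 to 11.2 CPM). The *Il12rb1* call was lost in 4 of 23 alternatives with adjusted p up to 0.148, among them those without LP replicate 3 or Phase 1 replicate 2. In sgCbfb cells *Il2ra* was called higher (20.2 to 115.5 CPM), against 0.740% of all genes. In experiment 2 sgCbfb called *Il2ra* higher (0.845 to 22.5 CPM), against 2.67% of all genes, and 3 genes lower, against 1.65%. The latter were *Il2rb* (42.7 to 0.367 CPM), *Il18r1* (73.5 to 5.35 CPM) and *Il18rap* (92.8 to 42.1 CPM). The list median was 0.05 with sgCbfb, 0.46 with sgCTCF and 0.11 with sgMed12, beside −0.01, −0.02 and −0.02 over all genes. With sgCTCF limma called 0 of 12, and with sgMed12 1 lower, *Il2rb* (42.7 to 20.8 CPM), a call lost in 10 of 24 alternatives with adjusted p up to 0.204, among them those without sgControl replicate 2 or 3 or sgMed12 replicate 1 or 2.

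In the contrasts of experiment 1 that chose the genes, given as a description, *Cd7* went with sgCbfb from 26.5 to 0 CPM in LPs and from 106.3 to 5.93 CPM in Phase 1 cells, and *Cd247* from 40.7 to 1.47 CPM in Phase 1 cells. *Fcgr3* was called higher in both stages. *Il2rb* and *Il18r1* were called lower in both, and *Il2ra* was higher in LPs (2.61 to 20.2 CPM) and lower in Phase 1 cells (371.3 to 115.5 CPM). In Phase 1 cells *Rab27a*, *Cst7*, *Cd244a*, *Ccl5* and *Il12rb2* were also called lower and *Zeb2* higher. Exons of *Cd7*, *Cd247*, *Zeb2*, *Il12rb2*, *Serpinb6a*, *Ctsl* and *Rab27a* overlap those of another annotated gene, so a part of their reads may belong to it. The same holds for the targeted genes *Med12* and *Ctcf*. Among list genes named elsewhere here, it holds for *Ccr9*, *Cox6a2*, *F13a1*, *Klrb1b*, *Klrb1c*, *Eomes*, *Myb*, *Xcl1*, *Cd3e* and *Col3a1*.

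**Figure D3:**
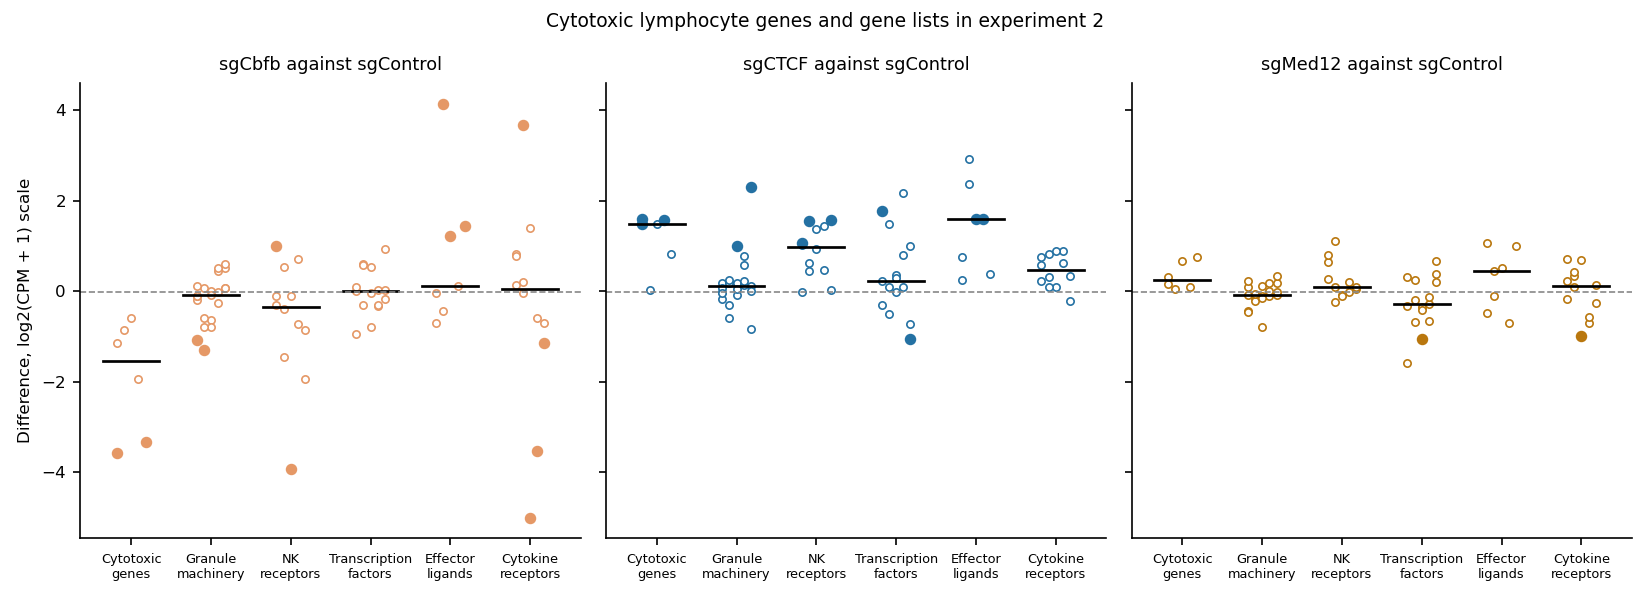
Each point is a tested gene of a list, with its limma difference from sgControl in experiment 2 on the log2(CPM + 1) scale; filled points are called, black bars are list medians and the dashed line is the median of all genes tested. Among the 6 cytotoxic genes *Ctsw* lies at −3.58 with sgCbfb and 1.60 with sgCTCF, and *Gzma* passed the filter on low values only through sgCTCF. So did *Klrb1b*, *Klri2*, *Cd96*, *Eomes*, *Tox2* and *Xcl1*, and the bars include all of these genes. With sgCTCF the bars lie at 0.97 for receptors, 0.23 for transcription factors and 1.58 for effector ligands. Without those genes the medians were 0.63, 0.10 and 1.17.

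Marker lists of cell types were summed in each group. The mature natural killer list of 10 genes summed to 39.7, 4.57, 19.4 and 4.15 CPM in sgControl LPs, sgCbfb LPs, sgControl Phase 1 and sgCbfb Phase 1 cells, led by *Il2rb* at 39.1, 3.95, 16.4 and 3.10 CPM. In experiment 2 it summed to 43.2, 1.25, 81.7 and 21.3 CPM with sgControl, sgCbfb, sgCTCF and sgMed12, again mostly *Il2rb* except with sgCbfb, where *Klrb1c* led at 0.877 CPM. *Ncr1*, *Klra8*, *Klra4*, *Klra9*, *Klre1* and *Gzmk* were at 0 in every library of experiment 1, and *Klra8* and *Klra9* in every library of experiment 2. With sgCTCF 7 of the 10 genes were at or under the floor, *Ncr1*, *Itga2*, *Klra8*, *Klra4*, *Klra9*, *Klre1* and *Gzmk*. In that group *Eomes* was at 2.65 CPM and *Klrb1c* at 1.18 CPM, above the floor as was *Klrd1*, which is not in this list. The part of such cells in the results was not tested.

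The T-cell list of 11 genes summed to 86.4, 71.0, 834.8 and 661.1 CPM in experiment 1 and to 91.4, 32.2, 104.6 and 91.9 CPM in experiment 2, in the same order of groups, led by *Trbc2* except with sgCTCF, where *Trac* led. In Phase 1 cells *Trbc2* made up most of the sum, at 551.3 CPM with sgControl and 591.7 CPM with sgCbfb. The rest of the list was lower with sgCbfb, where *Cd3d*, *Cd3e*, *Cd8a* and *Cd8b1* were at or under the floor, against only *Cd8b1* with sgControl. *Cd3e* and *Cd8b1* were at 0 in every library of experiment 2. The part of this list in the *Gzma* and *Nkg7* results was not tested. The mast cell and basophil list of 10 genes was at 66.5 CPM in sgControl Phase 1 cells, all of it *Cpa3*, at 0.619 to 2.87 CPM in the other groups of experiment 1 and at 0 to 1.34 CPM in experiment 2, with 8 of 10 at 0 in all libraries of both experiments.

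The monocyte, macrophage and neutrophil list of 12 genes moved with sgCbfb, from 96.7 to 548.0 CPM in LPs and from 52.3 to 423.2 CPM in Phase 1 cells of experiment 1, and from 85.9 to 765.6 CPM in experiment 2, with *Cd14* at 0 throughout. A few genes carried it: in experiment 2 *Mrc1* was at 471.6 CPM and *F13a1* at 194.1 CPM with sgCbfb, whereas *Adgre1* was at 58.0 CPM with sgControl and 61.9 CPM with sgCbfb, and *S100a8* and *S100a9* were at 0. The list was at 70.6 CPM with sgCTCF and 81.2 CPM with sgMed12. The plasmacytoid dendritic cell list of 10 genes, led by *Ccr9* in sgControl LPs, summed to 2079, 864.4, 653.6 and 659.6 CPM in experiment 1 and to 1514, 967.7, 1621 and 1570 CPM in experiment 2, with *Klk1* at 0. Its genes differed in direction with sgCbfb in experiment 2, where *Ccr9* went from 534.4 to 26.9 CPM and *Cox6a2* from 534.2 to 81.2 CPM, but *Ly6c2* from 11.2 to 270.4 CPM. The part of these cell types in the sgCbfb results was not tested.

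The OP9 stroma list of 10 genes summed to 7.02 to 15.6 CPM in experiment 1 and to 13.7 to 28.0 CPM in experiment 2, with *Col3a1*, *Dcn* and *Postn* at 0 in every library. The B-cell list of 8 genes summed to 165.3 to 343.2 CPM and to 189.9 to 286.7 CPM, mostly *Ebf1* transcript, which a 3′ tag can count from the deleted allele, with *Cd79a* at 0. The progenitor list of 13 genes summed to 4497, 5120, 2715 and 4283 CPM in experiment 1 and to 3557 to 4429 CPM in experiment 2. The list of 11 Notch response genes summed to 127.9 CPM in sgControl LPs, 95.6 CPM in sgCbfb LPs, 1431 CPM in sgControl Phase 1 cells and 549.6 CPM in sgCbfb Phase 1 cells, and to 66.1 to 153.3 CPM in experiment 2.

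**Figure D4:**
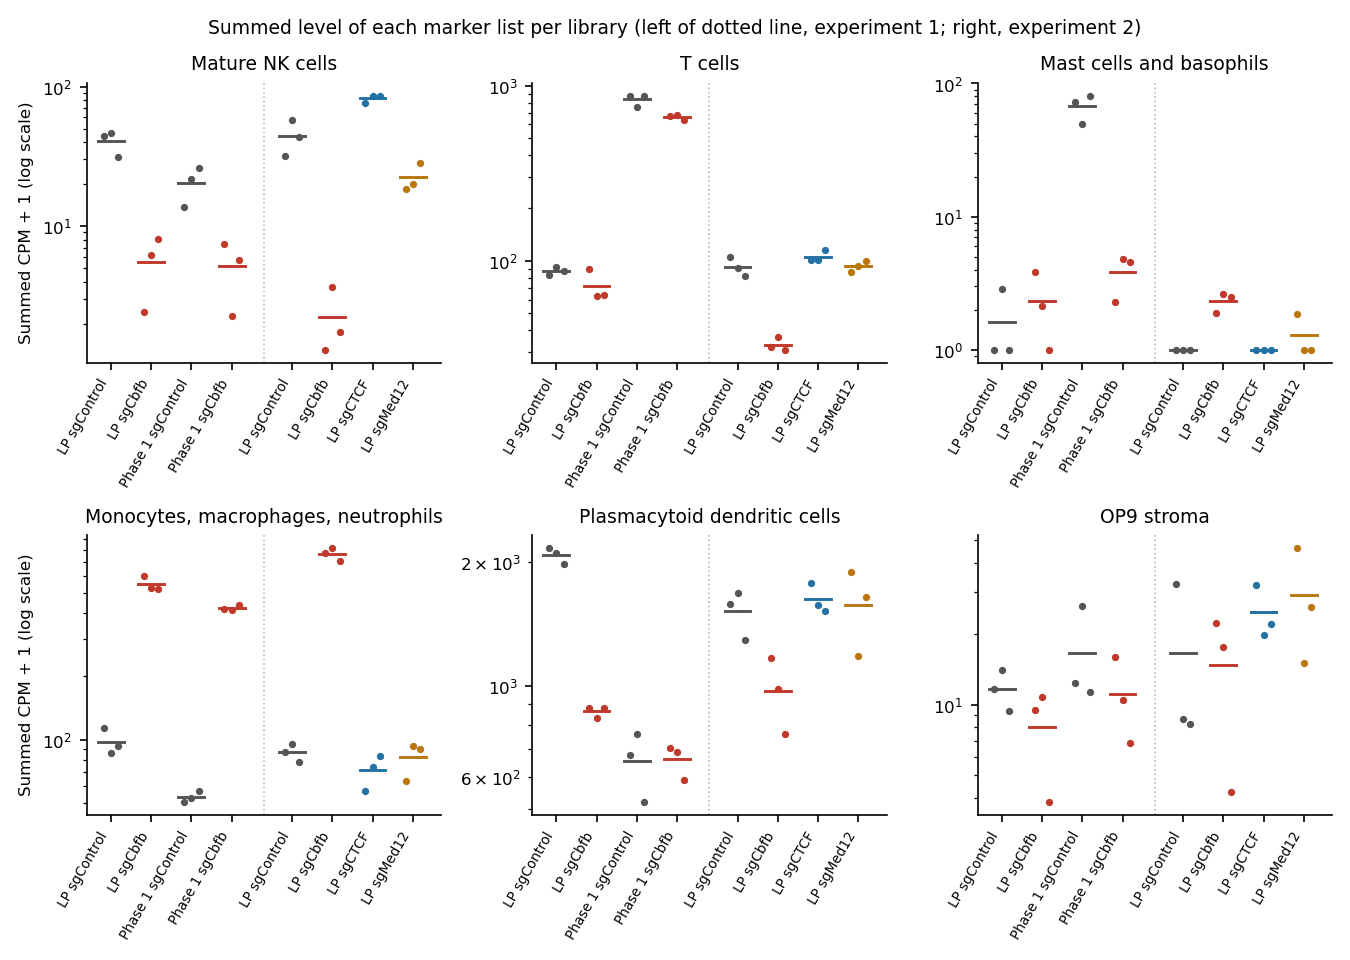
Summed CPM + 1 of 6 marker lists on a log axis for each library (points) with the mean of 3 (bars), by group; experiment 1 lies left of the dotted line. The mast cell and basophil sum stands out in Phase 1 sgControl libraries at 48.4 to 80.0 CPM, all of it *Cpa3*, with the other 9 genes at 0. The monocyte, macrophage and neutrophil sum is high in all sgCbfb groups.

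The genes whose pattern over the 12 libraries of an experiment was most like those of *Gzma* and *Ctsw* were found by Pearson r of log2(CPM + 1), as a description over groups that share their treatment. For *Gzma* in experiment 1, among 8995 genes, they included *Angpt1* (r = 0.977) and *Itgb7* (0.970). *Angpt1* had means of 2.47, 1.66, 79.0 and 17.9 CPM over LP sgControl, LP sgCbfb, Phase 1 sgControl and Phase 1 sgCbfb cells. For *Ctsw* they were *Dhcr7* (0.928), *5830411N06Rik* (0.922) and *Rasa4* (0.922) in experiment 1, and *Cd163l1* (0.985), *Mob3a* (0.984) and *Actr3b* (0.981) among 8908 genes in experiment 2. *Cd163l1* had means of 16.4, 0.0993, 57.3 and 27.2 CPM with sgControl, sgCbfb, sgCTCF and sgMed12.

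Of the 8 genes, only *Gzmb* and *Gzmc* share a chromosome, with 24182 bases between them. Of 30 neighbours within 50 kb of *Gzma*, *Prf1*, *Ctsw*, *Nkg7* and *Fcer1g*, 18 were tested in at least 1 comparison and limma called 0 of them, while neither neighbour of *Gzma* was tested. Near *Klrd1*, which lies in the natural killer receptor cluster of chromosome 6, *Gabarapl1*, at 49436 bases, was called higher with sgCTCF (36.1 to 100.6 CPM) and lower with sgMed12 than with sgCTCF, a gene chosen after its values were seen. The receptor genes beside *Klrd1* were at or near 0, the highest being *Klrk1* at 4.26 CPM in sgControl Phase 1 cells.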

How the data were processed

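QuantSeq 3′ mRNA libraries were trimmed with fastp and aligned with STAR to mm10 by the authors; the counting program, its strand setting and the annotation are not given in the sources used here. The deposited values carry a TPM heading but are CPM: the values of each library move in even steps and sum to 999991 to 999994, and 100.0% of values came out as whole reads to within 0.1 reads, with a largest gap of 0.0159 reads. Differences were fitted with limma 3.58.1 (trend, R 4.3.3) on log2(CPM + 1) of genes with at least 1 CPM in 3 or more libraries, with the 4 groups of an experiment in 1 fit and Benjamini-Hochberg adjustment over all genes tested (13239 in experiment 1, 13177 in experiment 2). The thresholds follow the study's methods. The tests were checked on simulated data.

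On the recovered reads, edgeR 4.0.16 called 256 genes higher and 232 lower with Notch in sgControl cells, 111 and 82 with Notch in sgCbfb cells, and in experiment 2 354 and 218 with sgCbfb, 245 and 83 with sgCTCF, and 116 and 45 with sgMed12. DESeq2 1.42.0 called 244 and 211, 112 and 81, 348 and 218, 243 and 83, and 118 and 45 genes in the same comparisons. The other alternatives were a pseudocount of 0.1 or 5, no filter on low values or only genes with a mean over 10 CPM, no fold threshold, each library left out in turn, a fit of only the groups compared, median-of-ratios scaling, and the replicate number as a block. Leaving mitochondrial genes out of the library total, and leaving out the sgMed12 libraries with a high mitochondrial share, were chosen after seeing the data. Ratios of means carry 95% counting intervals.

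The genes named are the 8 cytotoxic genes, the list genes called in a comparison with sgControl or with Notch stimulation (at most 5 per list and comparison), and the 3 genes most like *Gzma*, *Gzmb* or *Ctsw*, where the gene itself had a group mean over 10 CPM; 1 of these is not reported here. The lists are granule machinery, natural killer receptors, transcription factors, effector ligands and cytokine receptors, with markers of natural killer, T, mast and basophil, plasmacytoid dendritic, myeloid, B, stroma and progenitor cells and Notch response genes. Members and lists were chosen with earlier results of these data known.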

Additional observations from a re-analysis of the deposited data

Results flagged for a closer look

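The genes below were singled out because the change with sgCbfb differed between Phase 1 cells and LPs of experiment 1, by a limma test of the difference itself with Benjamini-Hochberg adjustment. Over all genes 157 of 13239 (1.19%) passed, 20 of them in the fixed lists. Those given are the 6 outside the marker lists; the other 14 are in marker lists only, with *Cd3g* (−4.61) as the largest. Values are the change in Phase 1 cells minus that in LPs on the log2(CPM + 1) scale. The difference is built from the sgCbfb contrasts used in the choice of genes, and the lists were chosen with earlier results known, so the values are descriptions with no p. *Gzma* had −3.66, which did not pass at a pseudocount of 0.1. *Il2ra* had −4.38 and *Myb* −1.23. *Cd247* had −3.59, which did not pass in 4 of 21 alternatives: at a pseudocount of 0.1 and without LP sgControl replicate 2, LP sgCbfb replicate 2 or Phase 1 sgCbfb replicate 2. *Cst7* had −1.64, which did not pass in 4 of 21: without LP sgControl replicate 2 or 3, LP sgCbfb replicate 3 or Phase 1 sgCbfb replicate 2. *Igf2r* had 1.25, which did not pass in 7 of 21: without LP sgControl replicate 1 or 2, LP sgCbfb replicate 2 or 3, or any of the Phase 1 sgCbfb replicates.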

How the results depend on the processing

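Of 66 changes of the 6 tested genes over all comparisons, 22 were called, and these 22 kept their direction under every alternative listed. Of the 22, 17 stayed called under all of them and 5 lost the call in some. Of 1504 values under an alternative, 1453 kept direction and side of the threshold, 14 ended a call, 11 added a call and 26, in 12 changes that were not called, turned the sign.

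The number of the 6 genes called moved as follows. Counts from experiment 1 are descriptions with no p, since its libraries entered the choice of the genes. In LPs of experiment 1 with sgCbfb it was 2 in place of 1 with mitochondrial genes left out of the total and 1 to 2 with libraries left out in turn, *Nkg7* being added without LP sgControl replicate 1. With Notch in sgCbfb cells it was 2 in place of 1 with no fold threshold and 1 to 2 with libraries left out, *Nkg7* being added without Phase 1 sgCbfb replicate 2. For the difference between the sgCbfb changes of the stages it was 0 at a pseudocount of 0.1, where *Gzma* had −3.08, and 2 at a pseudocount of 5. With sgCTCF it was 1 in place of 3 with no filter on low values, 2 at a pseudocount of 0.1 and 1 to 3 with libraries left out. With no fold threshold *Fcer1g* was added with sgCbfb in Phase 1 cells and in experiment 2, with Notch in sgCbfb cells, and for sgCTCF and sgMed12 against sgCbfb. Between sgMed12 and sgCTCF it was 2 in place of 3 at a pseudocount of 0.1 and with no filter, and 2 to 3 with libraries left out. With the sgMed12 libraries of high mitochondrial share left out, the difference was −1.59 for *Klrd1* and −1.13 for *Prf1*. That fit leaves only sgMed12 replicate 2, the library that stood apart from its group, assumed to vary like those of the other groups. *Klrd1* was added with sgCbfb in Phase 1 cells without Phase 1 sgControl replicate 3, and *Fcer1g* between sgMed12 and sgCbfb without sgCbfb replicate 1 (adjusted p 3.36e-06). The *Klrd1* and *Prf1* calls with sgCTCF were lost without the filter, at limma adjusted p of 0.0522 and 0.0506. The causes were not tested.

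Signs turned at a pseudocount of 0.1 for the difference between stages in *Prf1* (0.43) and *Klrd1* (0.37). With only sgMed12 replicate 2 left, those of high mitochondrial share being left out, they turned for sgMed12 in *Fcer1g* (−0.029) and *Klrd1* (−0.008) and for sgMed12 against sgCTCF in *Fcer1g* (−0.044). With libraries left out in turn, differences ranged as follows. *Prf1* had −1.53 to 0.089 with sgCbfb in LPs of experiment 1, −0.28 to 1.35 with Notch in sgCbfb cells, −1.20 to 0.42 in the difference between stages and −0.016 to 0.49 with sgMed12. *Klrd1* had −0.43 to 1.69 with Notch in sgControl cells, −0.087 to 0.46 with Notch in sgCbfb cells, −1.47 to 0.65 in the difference between stages and −0.28 to 0.42 with sgMed12. *Fcer1g* had −0.046 to 0.11 with sgCTCF, −0.032 to 0.11 with sgMed12 and −0.063 to 0.091 for sgMed12 against sgCTCF, where *Nkg7* had −0.25 to 0.10. The causes were not tested.

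Over all genes, no fold threshold gave 726 calls in place of 449 with Notch in sgControl cells, 267 in place of 158 with Notch in sgCbfb cells, 1272 in place of 570 with sgCbfb in experiment 2, 1084 in place of 320 with sgCTCF, 822 in place of 136 with sgMed12, 2260 in place of 905 for sgCTCF against sgCbfb, 1794 in place of 590 for sgMed12 against sgCbfb and 2105 in place of 529 for sgMed12 against sgCTCF. With only the groups compared, Notch in sgCbfb cells gave 245 calls and sgMed12 57. For sgMed12, no filter gave 54, and the counts were 61, 358 and 54 without sgMed12 replicate 1, 2 and 3, 66 without sgControl replicate 2, and 50 with the libraries of high mitochondrial share left out.

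The r between deviations of same-numbered libraries was −0.037 to 0.183 (median 0.052) in experiment 1 and −0.13 to 0.242 (median 0.067) in experiment 2, beside medians of −0.020 and −0.026 for libraries of different number. In experiment 2 it was positive for each same-numbered pair among sgControl, sgCbfb and sgCTCF. No pair of groups had every same-numbered r above 0.1, so the numbers were not taken to pair the libraries. With the replicate block, the number of the 6 genes called was the same in each comparison, and the calls over all genes went from 449 to 472 with Notch in sgControl cells, from 570 to 567 with sgCbfb, from 320 to 324 with sgCTCF and from 136 to 148 with sgMed12. Depth limits what is seen of genes near the floor. At or under it were *Gzmb* and *Gzmc* in every group and *Gzma* in sgControl and sgCbfb LPs of experiment 2. So were *Nkg7* in sgCbfb LPs of experiment 2 and *Klrd1* in every sgCbfb group.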
